A study of Mus musculus with 85 samples.

Results

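The comparison set untreated liver sinusoidal endothelial cells (LSECs) of A/J mice against those of C57BL/6J mice. Its members were the 4 A/J and 4 C57BL/6J LSEC control libraries, 8 of the 85 RNA-seq libraries of the series, picked by strain, cell type and treatment as labelled and read across all genes. Both strains are inbred and came from Jackson Laboratories, and the study's methods give male mice of 8 to 12 weeks on standard diet, with no transgene and no injected agent in either strain. LSECs were sorted as live single cells low in autofluorescence and side scatter, negative for CD45 and positive for CD146. CD146 is the product of Mcam, so that gene set the gate. The study asked how natural genetic variation shapes gene expression in the liver and its resident macrophages, and LSECs were profiled as neighbours of those macrophages. The labels do not say that each library came from its own mouse, so p-values measure the spread between these libraries.

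LSECs line the hepatic sinusoid with open fenestrae and no continuous basement membrane. They clear waste from blood through scavenger and Fc receptors, and they send Wnt, R-spondin and BMP signals that pattern the neighbouring hepatocytes. Endothelium of the central vein, portal vein and larger vessels shares the CD146 gate and is marked by genes such as Vwf, Rspo3 and Wnt9b.

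Hepatocyte RNA was checked in every library before the strains were compared. Alb, the serum albumin gene of hepatocytes, stood at 4844, 5515, 985 and 894 TPM, a unit scaled for transcript length and depth, in A/J libraries 1 to 4, against 932, 1249, 654 and 1530.2 TPM in C57BL/6J libraries 1 to 4. A/J libraries 1 and 2 were thus above the other 6, and A/J libraries 3 and 4 lay within the C57BL/6J range. As a share of all counts, Alb took between 0.111% and 0.707% in A/J libraries and between 0.0805% and 0.188% in C57BL/6J libraries. The 25 hepatocyte markers summed to 10569, 11683, 2349 and 1943 TPM in A/J libraries, against 2537, 3500.0, 2079 and 3941 TPM in C57BL/6J libraries; hepatocyte libraries of the same strains summed to between 158375 and 209872 TPM.

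The 15 Kupffer cell markers (liver macrophage genes) summed to 521, 441, 69.3 and 41.8 TPM in A/J libraries, against 246, 88.1, 71.5 and 69.3 TPM in C57BL/6J libraries. The 17 stellate cell markers (genes of the vitamin A storing pericytes) summed to 1364, 1030.2, 356 and 467 TPM in A/J libraries, against 688, 492, 380 and 279.8 TPM in C57BL/6J libraries. The same pair of A/J libraries was highest for all 3 cell types. None of the 25 hepatocyte and 10 Kupffer cell markers tested passed the call rule given below. Of 9 stellate markers tested, Ngfr and Rgs5 did. Without A/J libraries 1 and 2 the log2 fold change of Rgs5 was 1.34 with an adjusted p of 0.2, against 1.97 over all libraries, which ended its call. Ngfr stood at 16.9, 10.1, 3.12 and 5.52 TPM in A/J libraries and at most 1.41 TPM in C57BL/6J libraries. Without A/J libraries 1 and 2 it missed the TPM limit given below and was not tested. The median log2 fold change, A/J over C57BL/6J, was 0.99 for the hepatocyte, 1.21 for the Kupffer cell and 1.12 for the stellate markers. Without A/J libraries 1 and 2 these medians were -0.53, -1.11 and -0.19. Then 5 of 25 hepatocyte, 1 of 7 Kupffer cell and 0 of 6 stellate markers tested were called lower in A/J, and none higher. Lymphocyte markers summed to at most 5.86 TPM in any of the 8 libraries, and Ly6g, Retnlg and Chil3 of neutrophils and monocytes were at 0 counts in all 8. In bulk RNA, fewer cells of a type and less RNA per cell cannot be told apart.

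**Figure D1:**
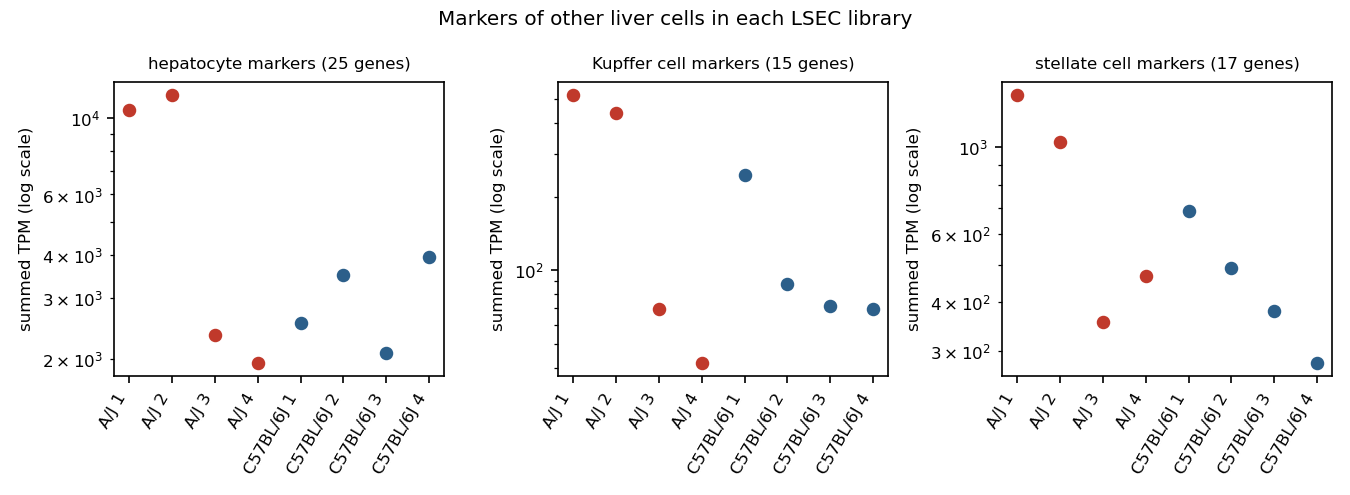
Summed TPM (log scale) of hepatocyte, Kupffer cell and stellate cell markers in each A/J (red) and C57BL/6J (blue) LSEC library, with 1 point a library. A/J libraries 1 and 2 stand above all others in each panel, at 10569 and 11683 TPM of hepatocyte markers.

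A/J libraries 1 and 2 correlated with each other at r = 0.99 over genes and with A/J libraries 3 and 4 at 0.955 to 0.96. A/J libraries 3 and 4 correlated at 0.98, and pairs of 1 A/J and 1 C57BL/6J library at 0.913 to 0.944. C57BL/6J libraries 1 and 2 correlated at 0.991, 3 and 4 at 0.986, and 1 or 2 with 3 or 4 at 0.979 to 0.984. Depth was 6.38, 7.71, 14.01 and 10.19 M counts in A/J libraries and 10.87, 9.66, 11.46 and 11.84 M counts in C57BL/6J libraries. Values without A/J libraries 1 and 2 are given below for calls that end when both are left out.

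Of 23608 genes in the table, 8687 were tested: those with enough counts and a mean TPM above 8 in at least 1 strain. A gene was called at an absolute log2 fold change above 1 and an edgeR adjusted p under 0.05. In all, 347 genes (3.99% of those tested) were called, 145 higher in A/J (1.67%) and 202 lower in A/J (2.33%). The median log2 fold change over all tested genes was 0.01. With no limit on the fold, 1819 genes (20.9%) had an adjusted p under 0.05, and the 4 A/J and 4 C57BL/6J libraries did not overlap for 2155 genes (24.8%). Of the 347 calls, 209 passed the TPM limit through 1 strain only, 75 through A/J and 134 through C57BL/6J; such a gene had to be lower in the other strain, so counts over a list that follow are descriptions. Without A/J libraries 1 and 2, 376 genes were called, among them 308 of the 347 in the same direction.

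Among the 842 tested genes that hepatocytes of these strains held at over 2 times the LSEC level, 29 were called higher in A/J (3.44%) and 29 lower (3.44%), with a median log2 fold change of 0.29. Among the other 7845, 116 were called higher (1.48%) and 173 lower (2.21%). Leaving the hepatocyte-high genes out left 292 calls.

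**Figure D2:**
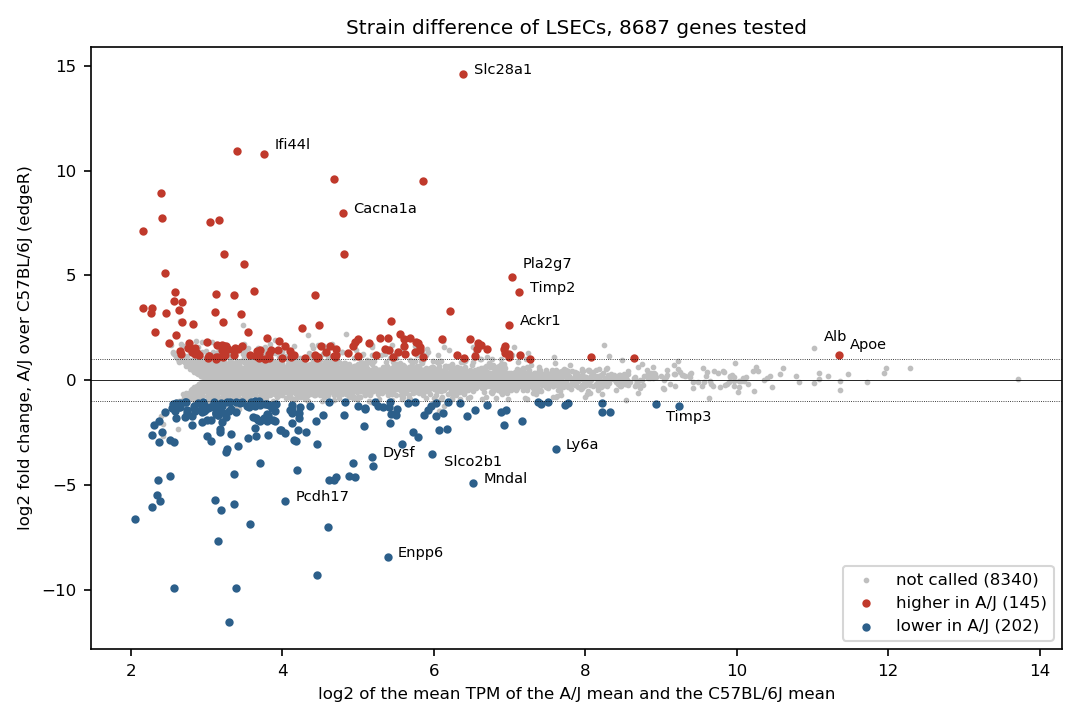
Log2 fold change, A/J over C57BL/6J (y), against log2 of the mean TPM of both strains (x) for the 8687 genes tested, with 145 genes called higher in A/J in red and 202 lower in A/J in blue. Dotted lines mark a log2 fold change of 1 in each direction, and most calls of large size lie at low to middle level.

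The genes by which LSECs are known were at high level in both strains. Of 22 LSEC identity genes, 21 were tested, all above the TPM limit in both strains; 1 was called, Mcam, and the median log2 fold change was 0.22. Clec4g, a C-type lectin of sinusoidal endothelium, stood at 4293, 4251, 4892 and 4033 TPM in A/J libraries, against 3688, 3715, 3665 and 3089 TPM in C57BL/6J libraries, a log2 fold change of 0.35 (SE 0.09, adjusted p = 0.016). Stab2, the hyaluronan clearance receptor, had a log2 fold change of -0.20 (adjusted p = 0.066), with 997 to 1079.8 TPM in A/J libraries and 1162 to 1357 TPM in C57BL/6J libraries. The difference passed the adjusted p but not the fold limit for Stab1 (-0.33), Fcgr2b (0.30), the Fc receptor that clears immune complexes, Flt4 (0.43), the VEGF-C receptor, and F8 (-0.64), coagulation factor VIII.

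Mcam fell to 106, 94.5, 101 and 115 TPM in A/J libraries, against 224, 273, 242 and 208 TPM in C57BL/6J libraries, a log2 fold change of -1.14 (SE 0.09, adjusted p = 4.5e-06). No A/J library reached the lowest C57BL/6J library, and the 4 of each strain lay close together. Since the sort selected on this protein, the level of its mRNA belongs to the gated cells only. Lyve1, the hyaluronan receptor of sinusoidal and lymphatic endothelium, stood at 608, 625, 519.7 and 468 TPM in A/J libraries, against 1025, 943, 1051 and 1119 TPM in C57BL/6J libraries. The groups did not overlap, and the log2 fold change of -0.84 (SE 0.11, adjusted p = 1.5e-04) was inside the fold limit.

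None of 25 pan-endothelial genes tested of 26 was called (median -0.02), and none of 27 endothelial transcription factors tested of 29 (median -0.08). Eng, the endothelial TGF-beta co-receptor, differed by -0.04 (SE 0.07, adjusted p = 0.71) and Cdh5, VE-cadherin, by -0.29 (SE 0.07, adjusted p = 0.011) on the log2 scale. Gata4, the transcription factor required for sinusoidal identity in mice, had a log2 fold change of 0.22 (SE 0.11, adjusted p = 0.18), with 386 to 572 TPM in A/J libraries and 369 to 477 TPM in C57BL/6J libraries, which overlap.

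Of 21 genes of large-vessel and capillary endothelium, 10 were tested; 6 were called lower in A/J and 1 higher, and the median log2 fold change was -2.26. Of the 6 lower calls, 3 (Fbln2, Eln and Esm1) passed the TPM limit through C57BL/6J only and so had to be lower, which the count and the median include. Vwf, the clotting factor carrier stored in endothelial granules, fell to 16.6, 16.3, 12.2 and 17.5 TPM in A/J libraries, against 61.7, 60.5, 74.9 and 162 TPM in C57BL/6J libraries. Its log2 fold change was -2.48 (SE 0.38, adjusted p = 0.0047), and without A/J libraries 1 and 2 it was -2.58 with an adjusted p of 0.052, which ended the call. C57BL/6J library 4 was far above the other C57BL/6J libraries, and every A/J library was below the lowest of them.

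Fbln2, an elastic fibre protein, fell to 2.87, 3.39, 3.39 and 3.66 TPM in A/J libraries, against 15.3, 17.5, 24 and 30.8 TPM in C57BL/6J libraries, a log2 fold change of -2.66 (SE 0.21, adjusted p = 1.5e-05). Eln, tropoelastin, fell by 2.14 (SE 0.21, adjusted p = 1.7e-05) and Esm1, an endothelial proteoglycan, by 2.37 (SE 0.34, adjusted p = 0.0018) on the log2 scale. All 3 passed the TPM limit through C57BL/6J only, which fixed their direction, and their A/J and C57BL/6J libraries did not overlap.

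Cd9, a tetraspanin, fell to 17.6, 21.8, 25.5 and 18.5 TPM in A/J libraries, against 136, 119.9, 91.2 and 108 TPM in C57BL/6J libraries, a log2 fold change of -2.39 (SE 0.16, adjusted p = 7.2e-07). Ly6a, which encodes the surface antigen Sca-1, fell to 11.5, 37.3, 74.9 and 11.2 TPM in A/J libraries, against 434, 283, 373 and 337 TPM in C57BL/6J libraries. Ly6a varied between 11.2 and 74.9 TPM among the A/J libraries, belongs to a family of similar copies that could share reads, and had a log2 fold change of -3.29 (SE 0.66, adjusted p = 0.016); without A/J libraries 1 and 2 this was -2.96 with an adjusted p of 0.098.

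Ackr1, a chemokine-binding receptor of venules and red cells, was the exception of this list. It rose to 186, 211, 229.8 and 251 TPM in A/J libraries, against 35.0, 33.7, 41.0 and 36.0 TPM in C57BL/6J libraries, a log2 fold change of 2.64 (SE 0.10, adjusted p = 6e-09). Libraries of each strain lay close together. The gene lies at chr1:173331886-173333503 on mm10 and shares exon sequence with Cadm3 on the same strand, so reads of the overlap cannot be assigned between them.

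Of the 14 genes of endothelium at the central vein, all tested, 4 fell in A/J and the other 10 were not called. The median log2 fold change was -0.61. Of the 4 calls, 2 (Pcdh17 and Wnt9b) passed the TPM limit through C57BL/6J only. They had to be lower in A/J, which the count and the median include. Wnt9b, a Wnt ligand that sustains the pericentral programme of hepatocytes in mice, fell to 6.05, 5.04, 3.01 and 5.09 TPM in A/J libraries, against 27.0, 23.2, 18.5 and 43.9 TPM in C57BL/6J libraries. Its log2 fold change was -2.53 (SE 0.34, adjusted p = 0.0019), and no library of one strain reached the range of the other.

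Rspo3, the R-spondin that amplifies Wnt signalling at the central vein, fell to 24.3, 26.8, 12.6 and 19.4 TPM in A/J libraries, against 55.9, 60, 40.3 and 107 TPM in C57BL/6J libraries. The highest level was in C57BL/6J library 4, as for Wnt9b and Vwf, and the groups did not overlap. Its log2 fold change of -1.63 (SE 0.38, adjusted p = 0.025) reached adjusted p values of 0.05 to 0.058 when A/J library 1, 3 or 4 or C57BL/6J library 1 or 2 was left out, which ended the call. Wnt2, the other central Wnt ligand, had a log2 fold change of -0.22 (SE 0.18, adjusted p = 0.41), with 109 to 135 TPM in A/J libraries and 97.9 to 177 TPM in C57BL/6J libraries.

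Pcdh17, a protocadherin, fell to 0.440, 0.631, 0.581 and 0.596 TPM in A/J libraries, against 30.5, 29.6, 35.0 and 33.9 TPM in C57BL/6J libraries, a log2 fold change of -5.77 (SE 0.11, adjusted p = 1.1e-11). The fatty acid chaperone Fabp4 fell to 218, 173, 203 and 159.5 TPM in A/J libraries, against 416, 496, 336 and 396 TPM in C57BL/6J libraries, a log2 fold change of -1.07 (SE 0.14, adjusted p = 3.3e-04). Fabp4 was near the fold limit: without A/J library 4 or C57BL/6J library 2 its log2 fold change was -0.99 to -0.97. Of 13 periportal endothelial genes, 11 were tested and none was called (median -0.04).

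**Figure D3:**
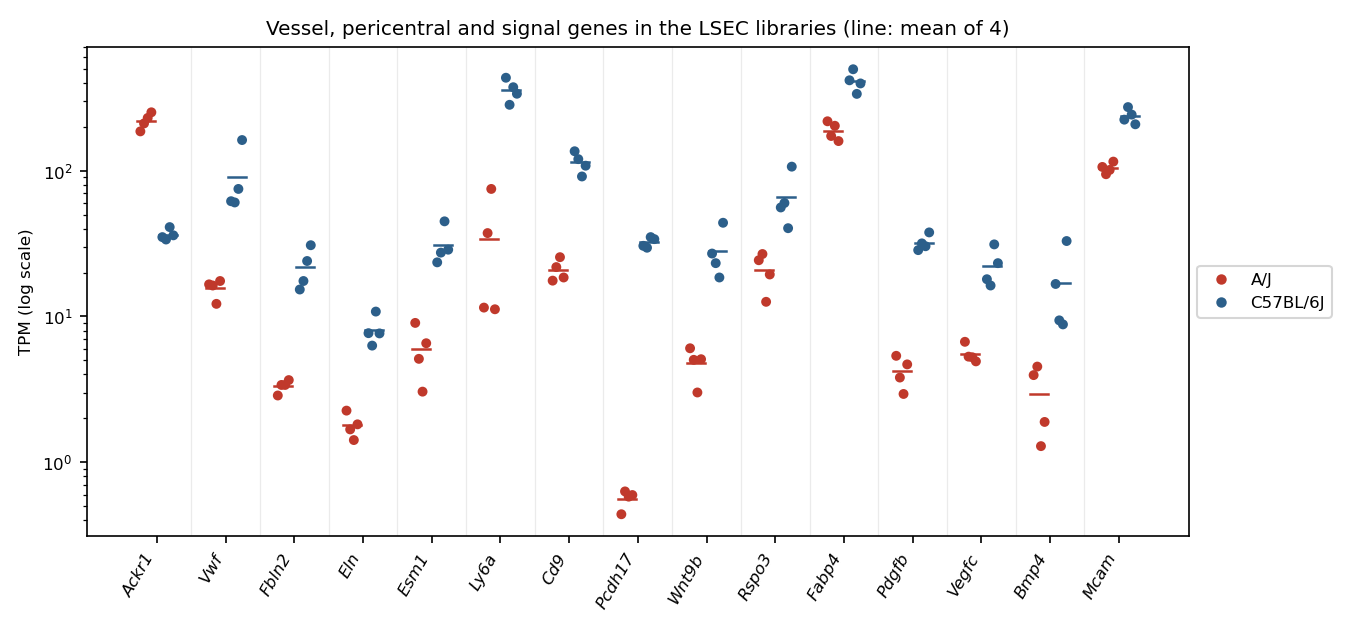
TPM (log scale) of vessel, pericentral and signal genes, with 1 point for each A/J (red, left) and C57BL/6J (blue, right) LSEC library and a line at the mean of 4. The strains do not overlap for any gene drawn, and Ackr1 is the only one drawn that is higher in A/J.

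Of 41 angiocrine genes, the signals that endothelium sends to its neighbours, 28 were tested, 4 of them passing through C57BL/6J only and 1 through A/J only. Of these 5 fell in A/J, Pdgfb, Bmp4, Wnt9b, Vegfc and Rspo3, none rose, and the median log2 fold change was 0.19; Wnt9b and Rspo3 stand in the pericentral list too. Pdgfb, Bmp4, Vegfc and Wnt9b passed through C57BL/6J only, which fixed their direction, and with no fold limit 10 members had an adjusted p under 0.05 on the higher and 8 on the lower side in A/J. Pdgfb, the platelet-derived growth factor that recruits pericytes and activates stellate cells, fell to 5.37, 3.81, 2.94 and 4.69 TPM in A/J libraries, against 28.5, 31.7, 30.3 and 37.7 TPM in C57BL/6J libraries. Its log2 fold change was -2.91 (SE 0.17, adjusted p = 2.1e-07), with no overlap.

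Vegfc, the lymphatic growth factor that signals through Flt4, fell to 6.70, 5.30, 5.25 and 4.92 TPM in A/J libraries, against 18, 16.3, 31.2 and 23.2 TPM in C57BL/6J libraries, a log2 fold change of -1.95 (SE 0.21, adjusted p = 4.1e-05). Bmp4, a bone morphogenetic protein, fell to 3.96, 4.53, 1.29 and 1.89 TPM in A/J libraries, against 16.7, 9.40, 8.82 and 32.9 TPM in C57BL/6J libraries, a log2 fold change of -2.55 (SE 0.61, adjusted p = 0.027). The Bmp4 call was lost, at adjusted p values of 0.058 to 0.069, when A/J library 1, 3 or 4 or C57BL/6J library 1 was left out.

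Bmp2, the sinusoidal ligand that controls hepcidin and so iron, was far more abundant than Bmp4 in TPM and differed by 0.40 on the log2 scale (SE 0.08, adjusted p = 0.0051), with 990.0 to 1046 TPM in A/J libraries and 698 to 888 TPM in C57BL/6J libraries. Bmp4 was the only call among 20 genes tested of 25 in BMP and TGF-beta signalling (median 0.01). Lrrc32, which anchors latent TGF-beta at the cell surface and is outside that list, fell to 139.7, 129.8, 109.9 and 129.7 TPM in A/J libraries, against 294, 299, 318 and 275 TPM in C57BL/6J libraries, a log2 fold change of -1.17 (SE 0.09, adjusted p = 1.6e-06).

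Among 15 Notch pathway genes tested of 20, Rbpj, the DNA-binding partner of the Notch receptors, was called (median -0.01). It fell to 2.60, 3.78, 3.17 and 4.67 TPM in A/J libraries, against 8.50, 8.10, 8.63 and 10.5 TPM in C57BL/6J libraries, a log2 fold change of -1.28 (SE 0.16, adjusted p = 1.4e-04). Rbpj passed the TPM limit through C57BL/6J only. Notch4, the endothelial Notch receptor, stood at 130.0, 126.9, 136 and 138 TPM in A/J libraries, against 68.0, 79.5, 93.0 and 75.4 TPM in C57BL/6J libraries, and its log2 fold change of 0.80 (SE 0.09, adjusted p = 5.5e-05) was inside the fold limit. The ligand Dll4 differed by 0.03 (SE 0.08, adjusted p = 0.79) on that scale.

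Cyr61 and Ctgf, secreted matricellular proteins and familiar targets of the YAP pathway, were picked after their values were seen. Cyr61 fell to 6.70, 5.83, 1.97 and 2.72 TPM in A/J libraries, against 27.0, 18.7, 21.9 and 15.3 TPM in C57BL/6J libraries, a log2 fold change of -2.26 (SE 0.40, adjusted p = 0.0053). Ctgf fell to 66.4, 59.8, 24.4 and 24.6 TPM in A/J libraries, against 125, 199, 196 and 276 TPM in C57BL/6J libraries, a log2 fold change of -2.14 (SE 0.46, adjusted p = 0.021). Both genes were lowest in A/J libraries 3 and 4, and neither overlapped between the strains.

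Of 32 genes of adhesion and leukocyte recruitment, 17 were tested, and Icam1 and Vcam1, the endothelial ligands of leukocyte integrins, fell with Mcam; none rose (median -0.06). Icam1 stood at 59.7, 52.1, 43.3 and 46.6 TPM in A/J libraries, against 109.7, 113, 97.2 and 131 TPM in C57BL/6J libraries, a log2 fold change of -1.11 (SE 0.12, adjusted p = 4.9e-05). Vcam1 stood at 23, 22.9, 11.7 and 17.9 TPM in A/J libraries, against 40.3, 47.9, 34 and 75.8 TPM in C57BL/6J libraries, a log2 fold change of -1.36 (SE 0.33, adjusted p = 0.028). The Vcam1 call ended at adjusted p values of 0.054 to 0.065 when A/J library 3 or 4 or C57BL/6J library 2 was left out.

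Clearance receptors gave a single difference past the rule. Of 35 scavenger and endocytosis genes, 33 were tested, and Scarf1, an endothelial receptor for modified lipoprotein and dying cells, was the 1 call (median 0.05). It fell to 57.5, 56.5, 62.2 and 63.0 TPM in A/J libraries, against 178, 197, 157 and 173 TPM in C57BL/6J libraries, a log2 fold change of -1.51 (SE 0.09, adjusted p = 1.9e-07). Scarf1 was also the only call among 13 efferocytosis genes tested of 18 (median 0.00).

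Inhibitors of matrix metalloproteinases moved in opposite directions. Timp2 rose to 226, 297, 275 and 263 TPM in A/J libraries, against 11.9, 9.10, 16.7 and 20.7 TPM in C57BL/6J libraries, a log2 fold change of 4.23 (SE 0.26, adjusted p = 2.2e-05). Timp3, the matrix-bound inhibitor, fell to 268, 309.8, 265 and 337 TPM in A/J libraries, against 612, 602, 653 and 850.1 TPM in C57BL/6J libraries, a log2 fold change of -1.16 (SE 0.11, adjusted p = 1.9e-05). In A/J both inhibitors were thus at 226 TPM or more in every library, while in C57BL/6J Timp2 was at most 20.7 TPM.

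The proteases Adamts10 and Mmp28 fell by 1.25 (SE 0.09, adjusted p = 9.1e-07) and 1.46 (SE 0.18, adjusted p = 1.3e-04) on the log2 scale, and the other 25 of 29 matrix genes tested of 39 were not called (median 0.02). Sparc, a collagen-binding matricellular protein, differed by 0.81 (SE 0.08, adjusted p = 2.1e-05), with 1172 to 1319.5 TPM in A/J libraries and 683 to 824 TPM in C57BL/6J libraries. Bgn, the proteoglycan biglycan, fell to 472, 385, 208 and 334 TPM in A/J libraries, against 774, 778, 877 and 988 TPM in C57BL/6J libraries, a log2 fold change of -1.24 (SE 0.24, adjusted p = 0.01).

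Interferon-stimulated genes (ISGs), which cells switch on through STAT and IRF factors, gave 1 call higher in A/J and 3 lower among 44 tested of 53, with a median log2 fold change of -0.29. Rsad2, the antiviral enzyme viperin, fell to 20.7, 26.2, 26.6 and 22.7 TPM in A/J libraries, against 69.9, 55.7, 53.7 and 63.2 TPM in C57BL/6J libraries, a log2 fold change of -1.28 (SE 0.11, adjusted p = 7.4e-06). Ifit3, which binds foreign RNA complexes, fell to 12.5, 9.54, 12.4 and 8.03 TPM in A/J libraries, against 36.0, 23.2, 22 and 26.5 TPM in C57BL/6J libraries, a log2 fold change of -1.29 (SE 0.20, adjusted p = 8.1e-04). Neither gene overlapped between the strains.

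Mndal, of the DNA-sensing Ifi200 family, fell to 5.71, 6.22, 5.47 and 5.37 TPM in A/J libraries, against 189, 161, 202 and 162 TPM in C57BL/6J libraries, a log2 fold change of -4.92 (SE 0.11, adjusted p = 4.7e-11). It shares exon sequence with its neighbour Ifi203, so reads could be split between them. Ifi44l was the reverse, with 22.3, 29.1, 32.8 and 23.9 TPM in A/J libraries and 0 in all 4 C57BL/6J libraries. Against a floor of 3 counts over the group it was at least 330.1-fold higher in A/J (adjusted p = 2.8e-07).

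The promoters of Rsad2 and Ifit3, of H2-T23, which also fell in A/J, and of Ifi44l are shown because factors of the interferon response bind a known element near the start of many such genes. These promoters were picked. H2-T23 comes from the class I list, and the promoter of Mndal, the other ISG called lower, is not shown. Matches in them do not describe the called genes as a set. RefSeq promoters (build GRCm38.p6, which is mm10) run from 250 bases before to 50 bases after the start and are given on the gene's strand. The core GAAANNGAAA was searched on both strands and is in capitals, which show its reverse complement where it lies on the other strand.
Rsad2, chr12:26456403-26456702, minus strand: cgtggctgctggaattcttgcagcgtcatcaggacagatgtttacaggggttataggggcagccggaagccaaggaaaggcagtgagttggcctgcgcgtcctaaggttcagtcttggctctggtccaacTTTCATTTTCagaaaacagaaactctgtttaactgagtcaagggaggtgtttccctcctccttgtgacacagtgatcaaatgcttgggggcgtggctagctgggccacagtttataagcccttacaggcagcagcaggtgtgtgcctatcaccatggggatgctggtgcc
Ifit3, chr19:34583279-34583578, plus strand: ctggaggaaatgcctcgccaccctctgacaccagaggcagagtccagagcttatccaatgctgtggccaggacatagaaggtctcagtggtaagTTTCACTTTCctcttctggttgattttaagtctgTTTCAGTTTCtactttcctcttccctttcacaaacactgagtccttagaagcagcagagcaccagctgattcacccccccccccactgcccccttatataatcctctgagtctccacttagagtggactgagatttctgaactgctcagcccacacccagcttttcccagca
H2-T23, chr17:36032652-36032951, minus strand: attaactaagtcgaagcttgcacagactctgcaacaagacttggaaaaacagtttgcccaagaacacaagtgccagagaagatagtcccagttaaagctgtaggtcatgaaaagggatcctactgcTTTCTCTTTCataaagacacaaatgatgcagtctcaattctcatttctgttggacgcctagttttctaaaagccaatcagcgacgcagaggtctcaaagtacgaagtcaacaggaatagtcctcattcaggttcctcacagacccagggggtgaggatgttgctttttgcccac
Ifi44l, chr3:151762842-151763141, minus strand: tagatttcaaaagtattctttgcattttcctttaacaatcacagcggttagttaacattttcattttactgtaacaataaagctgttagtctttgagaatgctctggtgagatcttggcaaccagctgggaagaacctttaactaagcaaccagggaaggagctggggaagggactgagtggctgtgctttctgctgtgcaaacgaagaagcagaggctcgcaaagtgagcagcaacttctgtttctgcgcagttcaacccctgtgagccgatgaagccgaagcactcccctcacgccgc

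The core stood once in the promoters of Rsad2 and H2-T23, at 2 places in that of Ifit3, and in none of the 300 bases of Ifi44l. It was in 1131 of 32851 RefSeq promoters (3.44%) and in 23 of the 43 promoters of tested ISGs (53.5%). Promoters of called genes held it in 3.92% of cases for genes higher in A/J (6 of 153) and 8.33% for genes lower in A/J (16 of 192). Among promoters of all genes tested the share was 3.1%. A match is a description of the reference letters, which are those of C57BL/6J, and the A/J alleles were not read.

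Antigen presentation gave 2 calls among 24 class I genes tested of 24, both of the non-classical H2-T group (median 0.16). H2-T23, which encodes the peptide-presenting molecule Qa-1, fell to 141, 175, 209.7 and 117 TPM in A/J libraries, against 546, 525, 379 and 468 TPM in C57BL/6J libraries, a log2 fold change of -1.52 (SE 0.21, adjusted p = 0.0012). H2-T22 fell by 2.19 (SE 0.25, adjusted p = 4.5e-04) on the log2 scale. Both belong to a family of near-identical, strain-variable copies whose reads could be split, and H2-T10 and H2-T-ps, beside them in the genome and outside the list, were called higher in A/J. The classical chains H2-K1 and H2-D1 differed by 0.20 (adjusted p = 0.67) and 0.21 (adjusted p = 0.56), and B2m, the shared light chain, by -0.07 (adjusted p = 0.80).

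None of 5 class II genes tested of 15 was called, although their median log2 fold change was 1.53. Cd74, the invariant chain of antigen-presenting cells, stood at 116, 164, 37.3 and 7.03 TPM in A/J libraries, against 65.5, 13.3, 11.6 and 17.4 TPM in C57BL/6J libraries, a log2 fold change of 1.64 (SE 1.05, adjusted p = 0.33). The high values were in A/J libraries 1 and 2 and C57BL/6J library 1, the 3 libraries that also led in Kupffer cell markers. The part of those cells in the class II values was not tested.

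Of 31 genes of pattern recognition, 21 were tested and 2 fell (median -0.09), Naip5 and Naip2, cytosolic sensors of bacterial flagellin and secretion-system proteins. Naip5 stood at 5.97, 6.31, 4.90 and 6.56 TPM in A/J libraries, against 22, 18.4, 22.3 and 22 TPM in C57BL/6J libraries, a log2 fold change of -1.79 (SE 0.11, adjusted p = 2.8e-07). Naip2 fell by 1.5 (SE 0.14, adjusted p = 1.2e-05). Both passed the TPM limit through C57BL/6J only, and the Naip genes are near copies of each other.

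Complement genes had a median log2 fold change of 0.88 over 21 tested of 28, with none called higher. C1qa, a C1q chain made by macrophages, stood at 64.0, 42.6, 9.74 and 3.15 TPM in A/J libraries, against 31.7, 13.1, 7.94 and 7.55 TPM in C57BL/6J libraries (log2 fold change 1.02, adjusted p = 0.51). With libraries 1 and 2 of each strain only, 12 complement genes were called higher, and the median was 1.35. Those A/J libraries were the ones with the most hepatocyte and Kupffer cell markers, whose part was not tested.

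In iron and heme handling, 1 of 20 genes tested of 25 was called (median -0.13): Nqo1, a quinone reductase of the oxidant response, fell by 1.63 (SE 0.21, adjusted p = 1.6e-04). The lipid list had 2 higher and 1 lower among 22 tested of 34 (median 0.20). Scd2, a fatty acid desaturase, rose to 80.5, 76.4, 56.2 and 78.4 TPM in A/J libraries, against 18.6, 14, 28.4 and 35.8 TPM in C57BL/6J libraries, a log2 fold change of 1.64 (SE 0.30, adjusted p = 0.0092). Without A/J libraries 1 and 2 its log2 fold change was 1.5 with an adjusted p of 0.064.

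Apoe, the lipoprotein ligand of hepatocytes and macrophages, rose to 4149, 3308, 4717 and 2173 TPM in A/J libraries, against 1829, 1969, 1343 and 1461 TPM in C57BL/6J libraries, a log2 fold change of 1.18 (SE 0.27, adjusted p = 0.024). Every A/J library was above the highest C57BL/6J library. The call ended at adjusted p values of 0.055 to 0.069 when A/J library 1 or C57BL/6J library 1, 3 or 4 was left out, at 0.10 without A/J libraries 1 and 2, and at 0.053 with hepatocyte marker level as a covariate (log2 fold change 1.10).

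Of 17 immediate-early and dissociation genes tested of 25, Hspa8, a constitutive chaperone with many genomic copies, was called (median -0.06). It fell by 1.70 (SE 0.15, adjusted p = 1.9e-05) on the log2 scale. Fos stood at 244, 187, 15.2 and 20.5 TPM in A/J libraries, against 214, 135, 86.6 and 47.9 TPM in C57BL/6J libraries, with a log2 fold change of 0.00 (SE 1.02). In each strain libraries 1 and 2 were above libraries 3 and 4. None of 3 proliferation genes tested of 20 was called (median -0.10), and Vwf was the only call among 16 coagulation genes tested of 29 (median -0.07).

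Other abundant genes were called too. Adgrg3, an adhesion receptor, fell to 145, 165, 143 and 157 TPM in A/J libraries, against 461, 439.8, 471 and 417 TPM in C57BL/6J libraries, a log2 fold change of -1.5 (SE 0.07, adjusted p = 5.8e-08). Ccm2l, an endothelial partner of the cerebral cavernous malformation proteins, fell by 1.07 (SE 0.10, adjusted p = 1.2e-05) on the log2 scale. Cnr2, a cannabinoid receptor, rose to 192, 192, 203 and 230.3 TPM in A/J libraries, against 93.3, 103.8, 93.6 and 126 TPM in C57BL/6J libraries; its log2 fold change of 1.02 (SE 0.10, adjusted p = 2e-05) was 0.97 to 0.98 without A/J library 4 or C57BL/6J library 1 or 3.

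Several genes were near absent in one strain. Slc28a1, a nucleoside transporter at chr7:81113269-81170416, stood at 122, 159.8, 230.5 and 159 TPM in A/J libraries and at 0 counts in all 4 C57BL/6J libraries. With 12256 counts against a floor of 3 it was at least 4676.4-fold higher in A/J. It was also at 0 TPM in all 4 BALB/cJ LSEC libraries, so among LSECs of the 3 strains A/J alone held it.

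Cacna1a, a voltage-gated calcium channel subunit at chr8:84338631-84640251, rose to 53.4, 51.2, 55.2 and 61.9 TPM in A/J libraries, against 0.257, 0.270, 0.202 and 0.178 TPM in C57BL/6J libraries, a log2 fold change of 7.97 (SE 0.13, adjusted p = 2.4e-12). Pla2g7, a lipase that degrades platelet-activating factor, rose to 218, 277, 259.5 and 264 TPM in A/J libraries, against 12, 10.7, 5.18 and 6.34 TPM in C57BL/6J libraries, a log2 fold change of 4.95 (SE 0.27, adjusted p = 9.1e-06). Gpr183, the oxysterol receptor that guides immune cells, rose to 45.9, 38.7, 34.9 and 42.8 TPM in A/J libraries, against 2.07, 3.06, 2.61 and 2.10 TPM in C57BL/6J libraries, a log2 fold change of 4.09 (SE 0.15, adjusted p = 5.8e-09).

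At the low end, Matn4, Pianp and Mdga1 had at most 0.131 TPM in any C57BL/6J library and between 7.38 and 21.8 TPM in A/J libraries. Their log2 fold changes were 8.92, 7.64 and 7.11. They passed the TPM limit through A/J only. Smaller increases at low level were those of Tmod4, an actin-capping tropomodulin (log2 fold change 4.07), Prss41, a serine protease (3.75), Hsd17b6, a steroid dehydrogenase (3.37), Emb, a partner of lactate transporters (3.19), and Ankrd33b (3.16). Hsd17b6 stood at 15.7, 22.2, 3.26 and 3.89 TPM in A/J libraries, against 0.498, 1.58, 0.897 and 1.45 TPM in C57BL/6J libraries. It was thus highest in the A/J libraries with the most Alb, whose part was not tested, and its call ended at adjusted p values of 0.054 to 0.068 without C57BL/6J library 1, 3 or 4.

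In the other direction, Enpp6, a choline phosphodiesterase at chr8:46939197-47096762, fell to 0.099, 0.208, 0.045 and 0.587 TPM in A/J libraries, against 57.5, 76.4, 78.0 and 123 TPM in C57BL/6J libraries, a log2 fold change of -8.45 (SE 0.55, adjusted p = 7.1e-05). Slco2b1, an organic anion transporter, fell to 13.7, 13.4, 5.69 and 6.65 TPM in A/J libraries, against 116, 94.6, 110.1 and 142 TPM in C57BL/6J libraries, a log2 fold change of -3.52 (SE 0.36, adjusted p = 6.3e-04). Rnase10 was at 0 counts in all 4 A/J libraries and at 13.6, 8.85, 12.6 and 12.6 TPM in C57BL/6J libraries, at least 153.8-fold lower in A/J. Pnp2, a purine nucleoside phosphorylase, and Rab6b, a Golgi GTPase, had at most 0.818 TPM in any A/J library and at least 15.0 TPM in every C57BL/6J library.

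Pttg1, securin, which restrains the separation of chromosomes, fell to 1.90, 1.72, 1.38 and 1.92 TPM in A/J libraries, against 40.9, 35.1, 34.9 and 28.9 TPM in C57BL/6J libraries, a log2 fold change of -4.31 (SE 0.17, adjusted p = 8.1e-09). Rasd1, a glucocorticoid-induced Ras-like GTPase, fell by 4.5, Map3k6, a stress kinase, by 3.95 and Cda, cytidine deaminase, by 3.42 on the log2 scale. Nxpe4 and Nxpe2, neighbours on chromosome 9, fell by 5.77 and 4.56, Plppr5 by 5.5 and Eps8l1 by 4.76; without A/J libraries 1 and 2 the log2 fold change of Eps8l1 was -4.78 with an adjusted p of 0.055. These 8 were named by a rule that took only calls without overlap between the strains, so their lack of overlap is no separate result. Over all genes tested, 24.8% did not overlap.

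**Figure D4:**
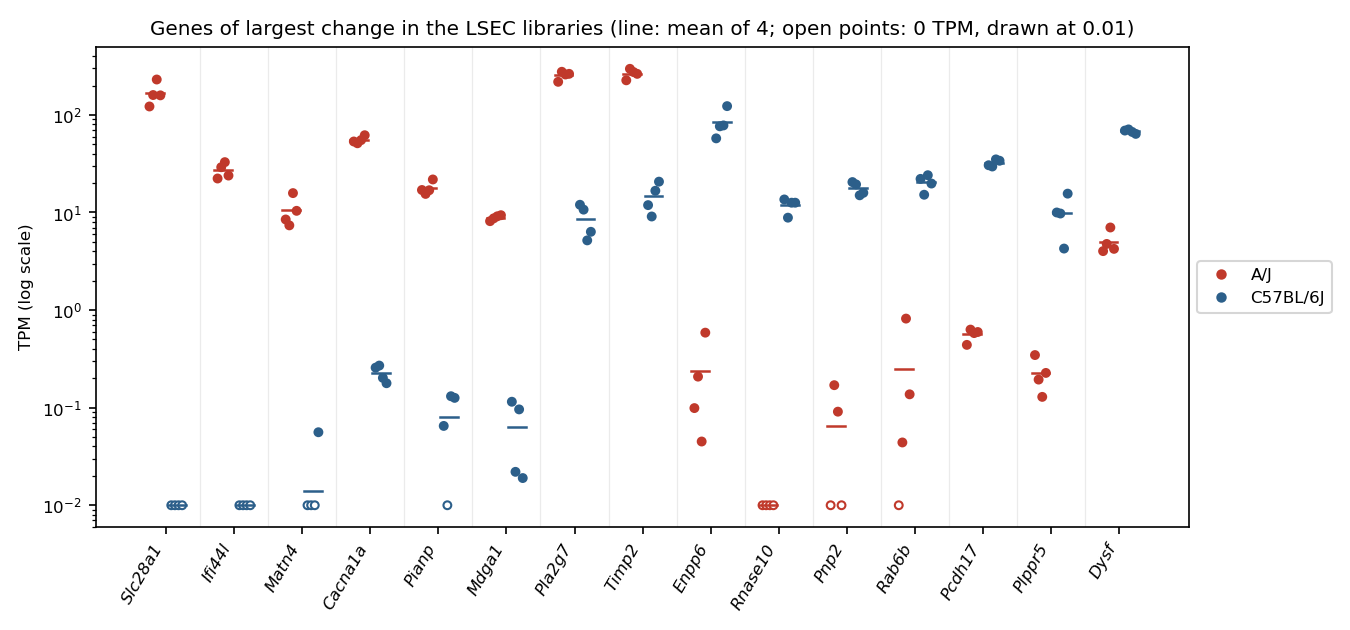
TPM (log scale) of genes of large change in each A/J (red, left) and C57BL/6J (blue, right) LSEC library, with lines at the mean of 4 and open points for 0 TPM, drawn at 0.01. Slc28a1 and Ifi44l are at 0 in all C57BL/6J libraries and Rnase10 in all A/J libraries.

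Genes with lesions known in these strains were read beside the labels. Dysf, dysferlin of membrane repair, carries a retrotransposon insertion in A/J; it fell to 4.02, 4.76, 7.02 and 4.24 TPM in A/J libraries, against 69.1, 71.0, 66.9 and 63.9 TPM in C57BL/6J libraries, a log2 fold change of -3.69 (SE 0.17, adjusted p = 1.7e-07). Nnt, the mitochondrial transhydrogenase, carries a multi-exon deletion in C57BL/6J; it rose to 17.5, 21.4, 12.7 and 15.4 TPM in A/J libraries, against 4.89, 4.84, 6.62 and 5.61 TPM in C57BL/6J libraries, a log2 fold change of 1.65 (SE 0.16, adjusted p = 2.5e-05). The strains did not overlap for either gene. Dysf passed the TPM limit through C57BL/6J only, as did Naip5, described above and in the same list. Nnt passed through A/J only. That limit fixed the direction of each, so the separation is a description. BALB/cJ LSECs, which carry neither lesion, had 64.2 ± 3.0 TPM of Dysf and 18.3 ± 2.5 TPM of Nnt (SD, n = 4). Hc, complement C5, which A/J lacks as a protein, had a log2 fold change of -0.93 (SE 0.30, adjusted p = 0.067). It stood at 7.6, 8.07, 3.8 and 3.59 TPM in A/J libraries, against 9.09, 10.5, 12.6 and 12.8 TPM in C57BL/6J libraries. In hepatocytes its log2 fold change was -2.57 (edgeR adjusted p = 8.6e-04). With hepatocyte marker level as a covariate, 3 of the 4 lesion genes tested were called lower, against 2 in the main test. The part of hepatocyte RNA in the Hc level was not tested. Lepr, the leptin receptor, had a log2 fold change of -0.89 (SE 0.17, adjusted p = 0.0055).

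Some calls fell in families whose copies share sequence and differ between strains. Of 71 ribosomal protein genes tested, 10 were called higher and 8 lower in A/J, with log2 fold changes between -7.00 and 9.52. The Trim12, Trim30 and Trim34 genes, antiviral ubiquitin ligases in tandem, gave 2 higher and 3 lower of 6 tested, the Ifi200 genes 1 higher and 2 lower of 7, the H2 class I genes 5 higher and 3 lower of 19, and the hepatocyte Mup genes none higher and 4 lower of 6. Ifi202b was at least 347.2-fold higher and Ifi208 at least 463.3-fold lower in A/J, each at 0 counts in the other strain. Of the 347 called genes, 92 have an exon that overlaps another gene. A/J reads were mapped by the authors to a genome that holds the known small variants but no larger structural ones, and the part of mapping in these calls was not tested.

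Some called genes lay near each other. Chromosome 17, which carries the H2 complex, had 33 calls among 457 tested genes (7.22%) and chromosome 13 had 19 of 289 (6.57%), beside 3.99% over all. In 9 places at least 4 called genes followed each other with gaps of no more than 500 kb, and these held 42 of the 345 calls with a position. The run at chr17:35994504-36168602 held 6 calls among 7 tested genes, H2-T23 and H2-T22 included. The run at chr7:104244448-104507853 held 5 Trim calls among 6, and that at chr1:173331886-173982844 held Ackr1, Ifi208, Mndal and Ifi202b among 8. The rest ranged from 4 calls among 6 tested genes (chr9:48162004-48836225) to 5 among 42 (chr17:34597460-35474563). How many such runs would arise by position alone was not tested.

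The strain difference was next set beside that of other liver cells, with their own A/J and C57BL/6J control libraries (Kupffer cells 2 and 2, stellate cells 4 and 3, hepatocytes 2 and 3). Of the 347 LSEC calls, 170 (49.0%) were also called in the same direction in stellate cells, where 622 genes (6.74%) were called, and they were 27.3% of those. Kupffer cells shared 88 (25.4%), with 360 genes (4.63%) called there, and hepatocytes 36 (10.4%), with 158 (2.87%). Of the 347 LSEC calls, 285 were tested in stellate cells, 177 in Kupffer cells and 123 in hepatocytes. The shares are of all 347, so they also depend on how many were tested in each cell type. Opposite calls numbered 1 in stellate cells, 2 in Kupffer cells and 3 in hepatocytes. Stellate libraries also held LSEC markers: Clec4g was at 1047 to 2094 TPM in A/J and 946 to 1434 TPM in C57BL/6J stellate libraries, and Stab2 at 282 to 437 TPM and 405 to 561 TPM, against at most 21 TPM of Clec4g in the hepatocyte and 8.40 TPM in the Kupffer cell libraries of these strains. Kupffer cell RNA was in the stellate libraries too, with more in A/J. Clec4f, a Kupffer cell marker, was at 842 to 2469 TPM in A/J and 427.7 to 535.5 TPM in C57BL/6J stellate libraries. Kupffer cell libraries of these strains had 5275 to 6205 TPM. The part of LSEC and Kupffer cell RNA in the stellate overlap and interaction counts was not tested. The difference between the LSEC effect and that of the other cell type, tested as an interaction over all genes, was called for 52 of the 347 against stellate cells (103 genes or 1.06% over all), for 74 against Kupffer cells (358, 3.71%) and for 109 against hepatocytes (539, 5.61%).

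Among the genes named in the text, 5 had an LSEC effect that differed from both the Kupffer and the stellate cell effect at an adjusted p under 0.05 and by more than 1 on the log2 scale; Adamts10 differed from both inside that limit, by -0.64 and -0.80. Timp2 was higher in A/J LSECs by 3.81 log2 units more than in Kupffer cells (SE 0.38, adjusted p = 1.9e-04) and 3.91 more than in stellate cells (SE 0.30, adjusted p = 1.2e-05). In Kupffer cells it stood at 124 and 179 TPM in A/J libraries, against 119.6 and 105 TPM in C57BL/6J libraries. In stellate cells it stood at 289, 313, 260.3 and 313 TPM in A/J libraries, against 188, 236 and 284 TPM in C57BL/6J libraries. C57BL/6J LSECs, at 9.10 to 20.7 TPM, were thus lowest in Timp2 mRNA among the LSEC, Kupffer and stellate cell groups of these strains. Hepatocytes held less, at 0.94 to 1.04 TPM in A/J and 0.718 to 0.861 TPM in C57BL/6J.

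Pla2g7 stood at 861 and 835 TPM in A/J Kupffer cells, against 862 and 887 TPM in C57BL/6J Kupffer cells, and the LSEC effect was larger by 4.99 log2 units (SE 0.38, adjusted p = 1.7e-05). Against stellate cells the difference of effects was 3.50 (SE 0.42, adjusted p = 7.8e-04). Stellate libraries, which held Kupffer cell RNA, had 174, 200, 403 and 228 TPM of Pla2g7 in A/J and 101.9, 96.5 and 82.5 TPM in C57BL/6J. The part of that RNA was not tested. Kupffer cells held much Pla2g7. In the A/J LSEC libraries, with Kupffer marker sums of 521, 441, 69.3 and 41.8 TPM, Pla2g7 stood at 218, 277, 259.5 and 264 TPM, and the part of Kupffer cell RNA in these levels was not tested.

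Pdgfb went the other way in Kupffer cells, with 58.3 and 61.3 TPM in A/J libraries, against 31.7 and 27.2 TPM in C57BL/6J libraries; there its log2 fold change was 1.01 (adjusted p = 9.3e-04). The difference of effects, LSEC minus Kupffer, was -3.94 (SE 0.26, adjusted p = 3e-06), and LSEC minus stellate it was -2.83 (SE 0.47, adjusted p = 0.0061). Stellate libraries had 8.82, 9.11, 26.8 and 14.1 TPM of Pdgfb in A/J and 17.5, 16.9 and 13.2 TPM in C57BL/6J. The part of Kupffer cell RNA in these levels was not tested. Slco2b1 in stellate cells stood at 163, 183, 143 and 177 TPM in A/J libraries, against 259.5, 247 and 349 TPM in C57BL/6J libraries, and the LSEC effect was more negative by 2.75 (SE 0.38, adjusted p = 0.0023). Its Kupffer cell levels were near 1 TPM in both strains. For Mdga1, below 5 TPM in both other cell types, the LSEC effect exceeded the stellate effect by 2.60 (SE 0.49, adjusted p = 0.013) and the Kupffer cell effect by 7.12 (SE 0.45).

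**Figure D5:**
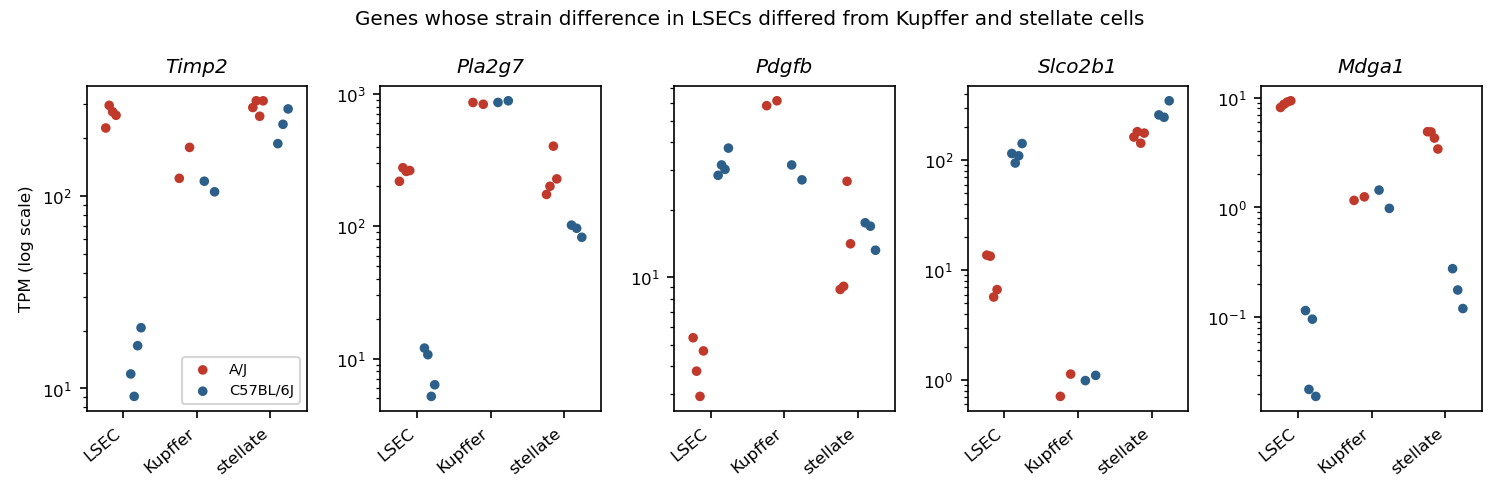
TPM (log scale) of Timp2, Pla2g7, Pdgfb, Slco2b1 and Mdga1 in each A/J (red) and C57BL/6J (blue) library of LSECs, Kupffer cells and stellate cells. Timp2 and Pla2g7 are low in C57BL/6J LSECs, and Pdgfb is higher in A/J Kupffer cells but lower in A/J LSECs.

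By mean TPM on a log2 scale, BALB/cJ LSECs lay nearer to A/J than to C57BL/6J for 100 of the 145 genes higher in A/J and for 124 of the 202 lower. Ackr1 had 244 ± 32 TPM in BALB/cJ LSECs (SD, n = 4), Pcdh17 1.82 ± 0.25, Slco2b1 11 ± 5.1 and Ly6a 23.9 ± 9.5, all nearer A/J. Mndal, at 145 ± 28 TPM, was nearer C57BL/6J, and Timp2, at 69.1 ± 14 TPM, lay between the A/J libraries (226 to 297) and the C57BL/6J libraries (9.10 to 20.7).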

How the data were processed

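Poly(A) RNA of sorted LSECs was sequenced as dUTP-marked libraries. The deposited counts of the 8 LSEC libraries are whole numbers of reads per gene, summed across its exons by the authors in HOMER after STAR had mapped reads to mm10 for C57BL/6J and to an A/J genome holding the known small variants, with positions shifted back to mm10. The deposited TPM values were made by the authors from the same reads for the isoform with the most counts, and their columns sum to 0.501 to 0.514 M over LSEC libraries. The deposited expected counts of cultured macrophages, in the same table, and the tables of hybrid mice were not used. The versions of these tools, and whether counting used strand, are not given in the sources used here; reads of a gene and an antisense neighbour may therefore be mixed. No column was left without a sample (0).

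The main test was edgeR's quasi-likelihood F test on the deposited counts (edgeR 4.0.16, R 4.3.3, TMM, robust), for which genes had to pass filterByExpr and a mean TPM above 8 in at least 1 strain. The study took genes averaging over 8 TPM into DESeq2. Adjusted p values are Benjamini-Hochberg values over all genes tested, and a call needed one under 0.05 with an absolute log2 fold change above 1. Fold changes are A/J over C57BL/6J. Interactions used 1 fit over both cell types. On simulated counts of this layout (8687 genes), 91% of 100 genes changed by 1.5 and 98% of 100 changed by 3 on the log2 scale were recovered, with 8 false calls. For the LSEC minus Kupffer cell effect, 80% and 94% were recovered, with 4 false calls. Changed genes were drawn above a minimum level, and each gene was simulated on its own. RNA of other cells shared by A/J libraries 1 and 2 was thus not simulated.

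Members, lists and rules were chosen with earlier results of these data known. The text names called members of the lists (up to 6 a list), the 15 largest calls a direction without overlap between libraries or copies that could share reads, the 15 most abundant calls, up to 4 uncalled members a list, and Alb, Nnt, Dysf and Lepr. Some results under this rule are not reported here. Any other gene was picked after its values were seen, which holds for Cyr61, Ctgf, Ifi202b and Ifi208. Of the genes tested, 8526 matched RefSeq by symbol and 148 by synonym. Same-numbered libraries of the 2 strains deviated together at r = 0.12, 0.071, 0.069 and 0.043, so numbers were not taken as pairs. Other combinations ranged from -0.284 to 0.379. These values do not test whether the strains share a grouping of libraries 1 and 2 against 3 and 4. Alternatives were other scalings and tools (limma 3.58.1, DESeq2 1.42.0), other filters, libraries left out, a hepatocyte covariate and a replicate block.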

Additional observations from a re-analysis of the deposited data

Results flagged for a closer look

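Of 221 groups of 4 libraries checked for the values named in the text and the marker sums, 13 held a library far from the other 3; chance gives about 1 in 20, so this number is near what chance gives. Among C57BL/6J LSECs, library 4 was set apart high for Vwf (162 TPM) and Matn4 (0.056 TPM) and low for Clec4g (3089 TPM). C57BL/6J library 1 was high for Cd74 (65.5 TPM) and the summed Kupffer cell markers (246 TPM), and library 2 was low for Naip5 (18.4 TPM). Among A/J LSECs, library 3 was set apart high for Adamts10 (23.3 TPM), Rab6b (0.818 TPM) and the bile duct and progenitor gene Spp1 (85.5 TPM). A/J library 3 was also high for the summed cholangiocyte markers (92.7 TPM) and low for Scd2 (56.2 TPM). Among BALB/cJ LSECs, library 1 stood high for Alb (5223 TPM) and for the summed hepatocyte markers (16665 TPM). The cholangiocyte sum was 2.14 and 2.64 TPM in C57BL/6J libraries 1 and 2 and 297 and 104.5 TPM in C57BL/6J libraries 3 and 4, so that group split in pairs.

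The strain effect in LSECs differed, by the interaction test of edgeR, from that in both Kupffer and stellate cells for 5 of the named genes by more than 1 on the log2 scale. On the log2 scale, LSEC minus Kupffer cell, the difference was 3.81 for Timp2, 4.99 for Pla2g7, -3.94 for Pdgfb, -3.32 for Slco2b1 and 7.12 for Mdga1. LSEC minus stellate cell, it was 3.91 for Timp2, 3.50 for Pla2g7, -2.83 for Pdgfb, -2.75 for Slco2b1 and 2.60 for Mdga1. Stellate libraries held LSEC and Kupffer cell RNA, whose part in these differences was not tested.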

How the results depend on the processing

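No called gene changed sign under any alternative run, and of the 73 named called genes 50 kept their call under all of those with the fold limit. The counts moved most with the fold limit, without which 1819 genes were called (903 higher in A/J, 916 lower), and next with the TPM filter: 757 were called with none (319 and 438) and 719 with a mean TPM above 1 (306 and 413). Libraries 1 and 2 of each strain alone, a choice made after seeing the data, gave 660 calls, 456 higher, or 69.1% of calls against 41.8% over all libraries; libraries 3 and 4 alone gave 405, of which 36.0% were higher. Leaving out 1 library gave 329 to 372 calls, 142 to 174 of them higher and 186 to 206 lower. Other scalings and tools gave 310 to 376, a covariate of hepatocyte marker level 382 and 1 fit over 12 libraries 370. Interaction counts stayed within 1.5 times of those in the text. Some log2 fold changes turned: Serpina3k, a hepatocyte serpin at 0.08 over all libraries, was -1.88 without A/J libraries 1 and 2, -1.37 with the hepatocyte covariate and -1.95 with libraries 3 and 4 alone; Fos was -1.88 with libraries 3 and 4 alone; Clu and Spp1 were 1.42 and 2.16 with libraries 1 and 2 alone. The cause was not tested.

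With replicate number as a block, 339 genes were called, and the calls of Apoe, Ly6a, Rgs5 and Rps9 were among those lost; the numbers mark no known pairing. At the lower depth of A/J libraries 1 and 2, differences of genes near the TPM limit are the least precise.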

Other observations

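Abundant calls outside the lists included Cyp2d22, a cytochrome P450, at 119, 128, 101 and 122 TPM in A/J libraries, against 229, 258, 245 and 253 TPM in C57BL/6J libraries (log2 fold change -1.02, SE 0.09, adjusted p = 4.8e-06). Its log2 fold change was -0.99 to -0.95 without A/J library 3 or C57BL/6J library 2. Rgs5 and Ngfr, pericyte and stellate cell markers, were called higher in A/J, with Rgs5 at 209.5, 167, 69 and 117 TPM in A/J libraries, against 50.9, 40.6, 43.1 and 14 TPM in C57BL/6J libraries. Rgs5 is itself in the stellate marker list, and the part of stellate cell RNA in its level was not tested. Its call ended when any 1 of 6 of the 8 libraries was left out. Without A/J libraries 1 and 2 its log2 fold change was 1.34 (adjusted p = 0.2). The Ngfr call ended at adjusted p values of 0.052 to 0.06 without C57BL/6J library 2 or 3, and without A/J libraries 1 and 2 Ngfr was not tested.

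Glo1, the glyoxalase that detoxifies methylglyoxal, was picked after its values were seen and stood at 84.1, 81.9, 84.8 and 76.5 TPM in A/J libraries, against 20.4, 20.2, 22.1 and 20.3 TPM in C57BL/6J libraries, a log2 fold change of 2.03 (SE 0.08, adjusted p = 1.1e-08). Gbp2b, a guanylate-binding protein picked in the same way, had a log2 fold change of 6.01 (SE 0.47, adjusted p = 3.8e-05), the only call among 7 guanylate-binding genes tested.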
